A study of Mus musculus with 40 samples.

Results

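Bulk RNAseq of rib callus was examined for 8 genes of cell cycle arrest and senescence, Cdkn1a, Cdkn2a, Cdkn2b, Mdm2, Trp53, Gdf15, Lmnb1, and Glb1, which were picked by gene symbol. All 8 were among the 21203 genes tested, out of 48709 genes counted. Immature and mature mice underwent resection of a rib segment, and composite tissue of bone, bone marrow, and intercostal muscle was sampled before surgery (baseline) and on days 0, 2, 5, and 14 after it (dpr, days post-resection). The design asks how these genes change from stage to stage of repair and whether the ages differ. Immature mice were 7 weeks old and mature mice over 10 months old. All were female wild-type mice with no treatment besides the surgery, of a strain that the study's methods print as C75BL/6. The labels describe every piece as collected after resection, whereas the study defines baseline as the state before it, and that definition is used here. Each group held n = 4 libraries except that of mature mice at 5dpr (n = 3), since its replicate 2 is not analysed here. Pieces of whole tissue hold many cell types, so a lower level of a transcript cannot be told apart from fewer cells that make it.

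Cells stop dividing through a small set of inhibitors of cyclin-dependent kinases (CDK), the enzymes that drive the cell cycle. The transcription factor p53, encoded by Trp53, switches on Cdkn1a (p21), an inhibitor of CDK2, and Mdm2, a ubiquitin ligase that in turn destroys p53. The INK4 genes Cdkn2a and Cdkn2b encode p16INK4a and p15INK4b, which block CDK4 and CDK6 upstream of the retinoblastoma protein, and Cdkn2a also encodes p19Arf, an inhibitor of Mdm2. Gdf15 encodes a secreted stress hormone of the TGF-beta family. Loss of lamin B1 (Lmnb1), a protein of the nuclear lamina, and a rise of lysosomal beta-galactosidase (Glb1) are used as signs of senescence, although dividing cells also make more lamin B1 and phagocytes are rich in lysosomes.

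Libraries held 6075274 to 21546794 counts (median 9092095). Replicates of a group mostly resembled each other, and the correlation of a library with the mean of its group mates (log2 CPM, read counts scaled to library size, over all genes) was 0.957 or higher in 37 of 39 libraries. Immature 0dpr replicate 1 (0.936) and mature 2dpr replicate 3 (0.900) stood apart. The former had a mean log2 CPM of 3.74 for proliferation markers and 5.80 for erythroid markers, against 4.26 to 6.19 and 7.26 to 8.66 in its group mates, and the latter had 8.22 for neutrophil markers against 4.69 to 6.76. The part of these markers in the results was not tested. No gene of the lists for muscle, bone and callus, macrophages, neutrophils, erythroid cells, B cells, and proliferation was at 0 in any group. Called changes of the members, and their differences between the ages, that rest on either library are given with and without it, and the fit without both was chosen after seeing the data. The labels do not say whether replicates came from separate animals, so that p-values measure the spread between these libraries, which may be in part technical. They mention separate sequencing runs without assigning libraries to runs, and a run effect was not tested.

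Promoter windows are shown for Cdkn1a, which p53 switches on, and for the INK4 genes Cdkn2a and Cdkn2b, to place them on the genome. Windows of other members, of which Gdf15 had 2, are not shown, and the elements they held are named below. The windows, from 250 bases before to 50 bases after a start site, are RefSeq sequence of the GRCm38.p6 assembly, written 5′ to 3′ on the coding strand, and 7 of the 8 members had at least 1 window. Cdkn1a had 2 windows, of which the upstream one is shown. Its capitals mark a p53 full site, from 51 to 32 bases before the upstream start, with 1 mismatch to the consensus of paired half-sites. The downstream window of Cdkn1a, chr17:29093519-29093818, held GGGCGG and no p53 full site, and is not shown. A p53 full site was searched on both strands with up to 2 mismatches outside the core C and G, and was present in 0.326% of all 32851 windows. Capitals in the Cdkn2a and Cdkn2b windows mark GGGCGG, present on either strand in 35.7% of windows, and TGACGTCA, present in 1.79%. The motifs do not overlap in these windows. The upstream Cdkn2a window begins the transcript of p19Arf and the downstream one that of p16INK4a.
Cdkn1a chr17:29090729-29091028 (+): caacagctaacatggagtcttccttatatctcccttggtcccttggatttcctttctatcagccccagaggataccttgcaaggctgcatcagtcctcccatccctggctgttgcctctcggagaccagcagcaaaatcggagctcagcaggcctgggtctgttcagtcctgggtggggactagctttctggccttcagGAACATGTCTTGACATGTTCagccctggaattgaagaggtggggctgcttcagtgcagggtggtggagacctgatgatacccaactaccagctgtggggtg
Cdkn2a chr4:89294570-89294869 (-): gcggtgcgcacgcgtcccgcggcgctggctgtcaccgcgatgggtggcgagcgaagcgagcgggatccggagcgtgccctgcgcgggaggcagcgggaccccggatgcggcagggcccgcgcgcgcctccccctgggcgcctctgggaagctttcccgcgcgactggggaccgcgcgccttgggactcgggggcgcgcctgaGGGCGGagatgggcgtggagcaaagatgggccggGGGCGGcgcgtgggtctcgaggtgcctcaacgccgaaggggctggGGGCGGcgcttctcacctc
Cdkn2a chr4:89282143-89282442 (-): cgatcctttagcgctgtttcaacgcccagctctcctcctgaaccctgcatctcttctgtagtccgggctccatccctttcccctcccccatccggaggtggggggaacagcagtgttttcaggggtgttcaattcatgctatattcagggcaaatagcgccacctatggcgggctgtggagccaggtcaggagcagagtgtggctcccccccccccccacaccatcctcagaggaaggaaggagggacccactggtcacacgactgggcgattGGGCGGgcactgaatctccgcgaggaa
Cdkn2b chr4:89310983-89311282 (-): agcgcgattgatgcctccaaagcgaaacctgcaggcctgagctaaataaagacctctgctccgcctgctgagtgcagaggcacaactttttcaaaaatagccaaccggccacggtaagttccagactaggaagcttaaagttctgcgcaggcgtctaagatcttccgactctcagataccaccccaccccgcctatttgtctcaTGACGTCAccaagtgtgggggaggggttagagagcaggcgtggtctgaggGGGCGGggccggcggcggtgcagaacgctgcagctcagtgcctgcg

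Cdkn1a spans chr17:29090976-29100727 of GRCm38 on the + strand, and 7.68% of its exon bases (273 bases) are shared with the opposite-strand locus AC167363.2. The INK4 genes are neighbours on the - strand, with Cdkn2a at chr4:89274471-89294653 and Cdkn2b at chr4:89306299-89311039. The longest run of bases that their transcripts share is 23 bases, against reads of 150 bases. Cdkn2a was counted as 1 gene, so that its p16INK4a and p19Arf transcripts cannot be told apart. Mdm2 lies at chr10:117688875-117710758 (-), Trp53 at chr11:69580359-69591873 (+), Gdf15 at chr8:70629393-70632456 (-), and Glb1 at chr9:114401076-114474898 (+). Glb1 shares 165 exon bases (5.49%) with Tmppe on the same strand, so that a small part of its count is uncertain. The Mdm2 window held GGGCGG in both orientations and the Glb1 window held it in overlapping copies. CACGTG, found in 7.15% of windows, was in windows of Glb1, Gdf15, and Trp53. TATAAA (13.6% of windows) was in that of Trp53, and TGATGNAA (3.97%) was in no window of a member. Among the windows of the members, only the upstream one of Cdkn1a held the p53 full site. The search allowed no spacer between half-sites and covered these windows only, so that sites elsewhere in a gene were not sought.

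Levels differed widely between the members. Per kilobase of exon and averaged over 39 libraries, Glb1 was highest at 18.5 CPM per kb, followed by Mdm2 (15.2), Lmnb1 (12.9), Cdkn1a (10.4), and Trp53 (8.63). Cdkn2b (1.42 CPM per kb), Gdf15 (1.15 CPM per kb), and Cdkn2a (0.391 CPM per kb) were far lower. No member averaged under 1 CPM in all 10 groups, which was the limit for a level near zero. Cdkn2a came closest, with a mean under 1 CPM in 9 of 10 groups, at most 3 counts in 20 of 39 libraries, and 0 counts in 8. Gdf15 averaged under 1 CPM in 3 groups and had at most 3 counts in 8 libraries, whereas Cdkn2b averaged under 1 CPM in 1 group and had more than 3 counts in every library. The level of each of the other 5 members was above 1 CPM in every group.

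**Figure D1:**
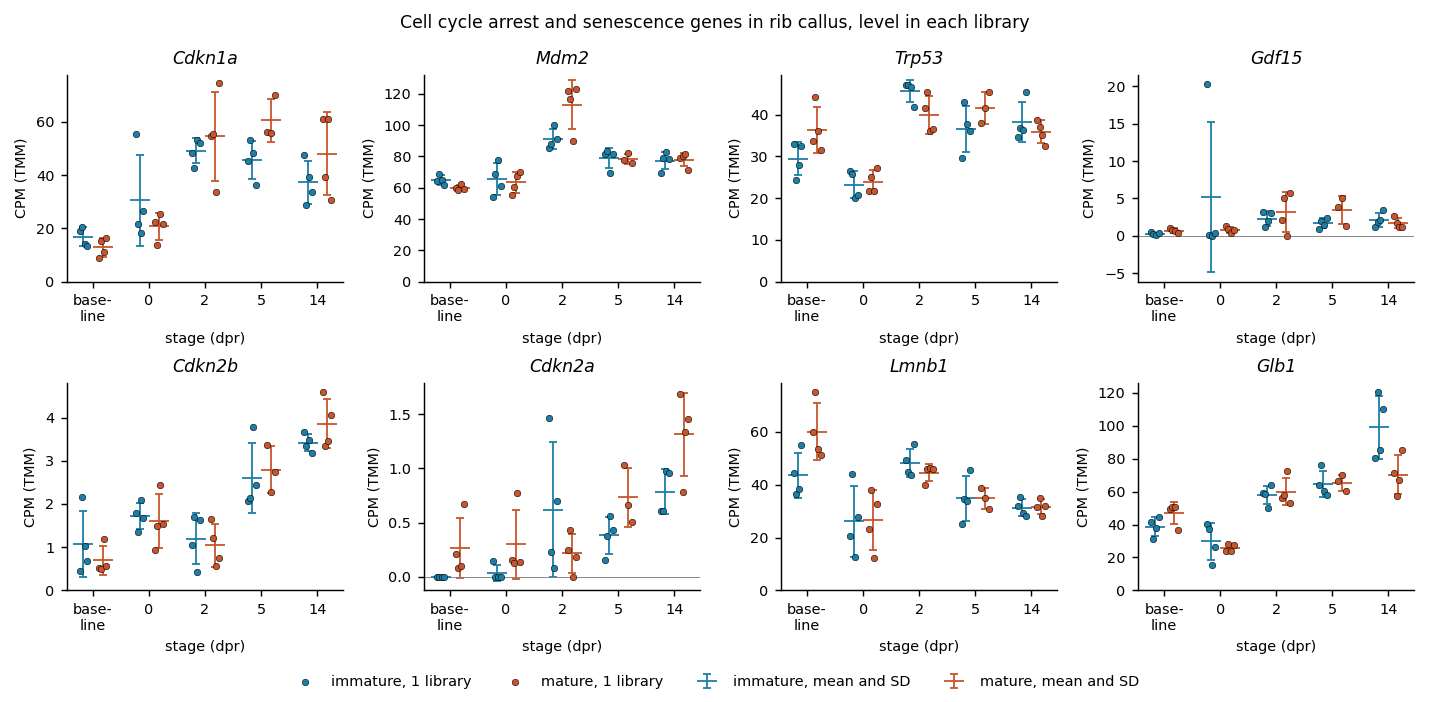
Level of each gene (y axis, CPM with TMM scaling) in each library (points) at each stage (x axis) in immature and mature mice, with the mean and SD of each group. Gdf15 has 1 immature 0dpr library at 20.3 CPM, and Cdkn2a lies below 2 CPM throughout.

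Within immature mice, the members called between stages all rose with all 39 libraries. The 2 called at 0dpr against baseline, Cdkn1a and Gdf15, did not pass without 0dpr replicate 1. Without both libraries that stood apart, Trp53 and Glb1 passed in that step instead, both as lower. At 0dpr against baseline 2 of 8 rose (10.6% of all genes tested were called, 5.98% as higher), at 2dpr against 0dpr 6 of 8 (44.0% of all genes, 21.8% higher), and at 14dpr against baseline 6 of 8 (31.4% of all genes, 16.4% higher). From 2 to 5dpr (8.04% of all genes) and from 5 to 14dpr (3.18%) 0 of 8 passed the test, and 2 and 1 of them had an unadjusted p under 0.05. Of all 21203 genes 4211 and 2965 had one in these steps. Within mature mice, 1 rose and 3 fell at 0dpr against baseline (22.5% of all genes, 11.9% higher and 10.6% lower), 5 rose from 0 to 2dpr (47.6%, with 22.7% higher), and 1 rose and 1 fell from 2 to 5dpr (14.5%, with 8.16% higher and 6.38% lower). None of 8 passed from 5 to 14dpr (4.18% of all genes), with 0 at an unadjusted p under 0.05 (3905 of all 21203 genes). At 14dpr against baseline 5 rose and 1 fell (33.5%, with 17.1% higher and 16.4% lower). Over all stage changes edgeR called 14 of 40 in immature and 17 of 40 in mature mice, and DESeq2 called 16 and 18. The median log2 fold change of the members from 0 to 2dpr was 0.79 in both ages, beside −0.04 (immature) and −0.05 (mature) over all genes, and at 14dpr against baseline it was 1.25 and 0.91, beside −0.04 and −0.03. With RLE size factors the median of all genes from 0 to 2dpr was −0.13 in both ages. The stages share libraries, so that 0dpr enters both the first and the second step.

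**Figure D2:**
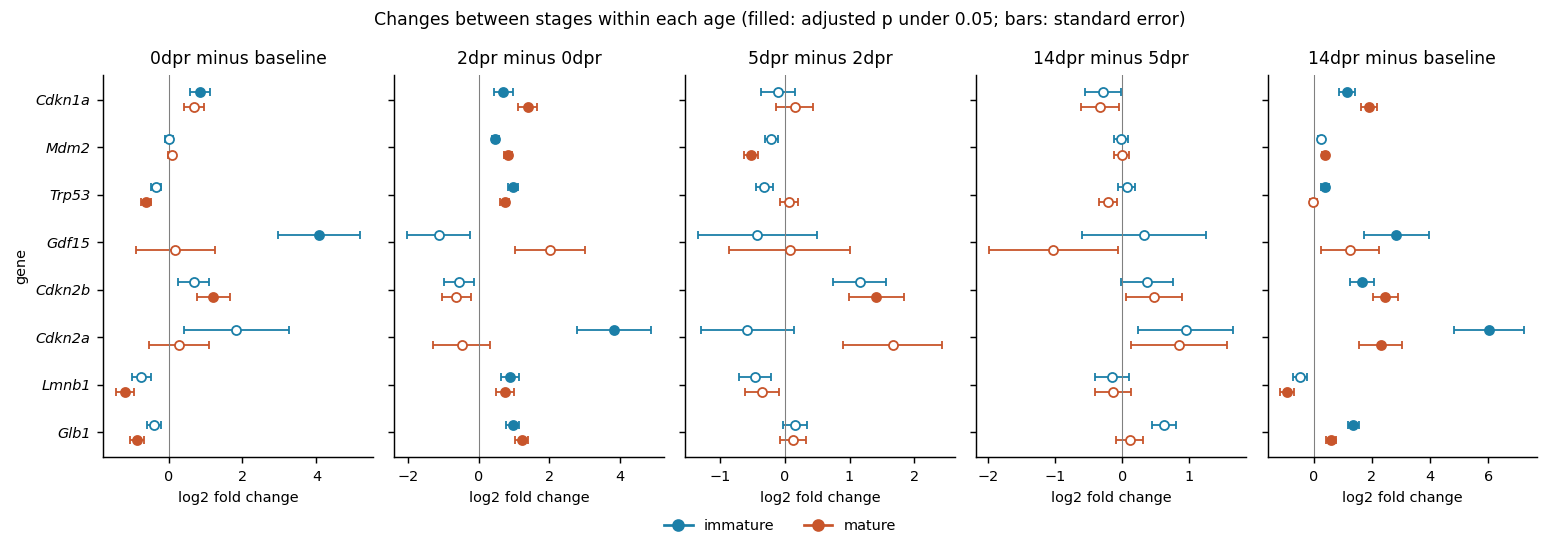
Log2 fold change (x axis) of each gene (y axis) for 5 changes between stages, in immature and mature mice, with standard errors as bars and filled points where the adjusted p was under 0.05. At 2dpr against 0dpr the filled points all lie to the right of 0, and Lmnb1 lies to the left of 0 at 14dpr against baseline.

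Cdkn1a, the p21 gene, was lowest at baseline and highest from 2dpr on in both ages. It averaged 16.8 ± 3.57, 30.5 ± 17.1, 49.1 ± 4.71, 45.8 ± 7.10, and 37.3 ± 8.12 CPM (SD, n = 4) in immature mice at baseline, 0, 2, 5, and 14dpr. In mature mice it averaged 12.9 ± 3.59, 20.8 ± 5.07, 54.5 ± 16.8, 60.7 ± 8.05, and 48.1 ± 15.5 CPM at the same stages (n = 3 at 5dpr). Ordered by mean level, 2 of 9 neighbouring pairs of groups differed by more than the larger SD. Immature libraries held 19.1, 20.5, 14.3, and 13.2 CPM at baseline, 55.6, 21.7, 18.2, and 26.4 CPM at 0dpr, and 48.5, 42.8, 53.3, and 52.0 CPM at 2dpr. Apart from replicate 1, the 0dpr libraries lay below every 2dpr library. Mature libraries held 8.91, 15.3, 10.9, and 16.5 CPM at baseline, 22.4, 13.6, 25.5, and 21.7 CPM at 0dpr, and 54.7, 55.4, 33.5, and 74.5 CPM at 2dpr, and the 0 and 2dpr libraries did not overlap.

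Cdkn1a rose from 0 to 2dpr by 1.39 ± 0.27 on the log2 scale (SE) in mature mice (adjusted p = 6.76e-05), and was higher at 14dpr than at baseline by 1.15 ± 0.28 in immature mice (adjusted p = 0.00127) and by 1.89 ± 0.28 in mature mice (adjusted p = 1.74e-06). These 3 calls held with each library left out in turn and under all 6 planned settings. In immature mice the rise at 0dpr against baseline, 0.85 ± 0.28 (adjusted p = 0.0421), rested on single libraries. Without immature 0dpr replicate 1 it was 0.37 (adjusted p = 0.389), and without any one of the baseline replicates 2, 3, 4, and 6 the adjusted p was 0.0652, 0.0547, 0.113, and 0.133, and with only the libraries compared it was 0.187. The call held under 4 of the 6 planned settings, and the largest adjusted p among the 6 was 0.226. The rise from 0 to 2dpr in immature mice, 0.70 ± 0.27 (adjusted p = 0.0347), was 1.17 without 0dpr replicate 1 (adjusted p = 0.000277). It was lost without 0dpr replicate 2, 3, or 4 or 2dpr replicate 1, 3, or 4, with adjusted p-values from 0.0531 to 0.176, and with RLE size factors (adjusted p = 0.0769), with DESeq2 (0.073), or with only the libraries compared (0.0939). In mature mice Cdkn1a at 0dpr against baseline was 0.69 ± 0.28 (adjusted p = 0.0752), and passed with DESeq2 (adjusted p = 0.0468) and without mature 0dpr replicate 2 (adjusted p = 0.0397).

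Mdm2, the p53-induced ligase that limits p53, had its highest mean at 2dpr in both ages. It averaged 64.9 ± 3.04, 65.5 ± 10.3, 91.2 ± 6.37, 79.0 ± 6.45, and 77.4 ± 5.46 CPM in immature mice and 60.0 ± 1.67, 63.4 ± 6.71, 113 ± 15.7, 78.6 ± 3.18, and 78.0 ± 4.43 CPM in mature mice, from baseline to 14dpr. In the order of the groups 3 of 9 neighbouring pairs differed by more than the larger SD, with mature and immature 2dpr at the top. Libraries at 0dpr held 53.9, 68.7, 78.0, and 61.2 CPM in immature and 55.2, 60.7, 67.6, and 70.01 CPM in mature mice, and libraries at 2dpr held 85.6, 87.8, 100.1, and 91.2 CPM in immature and 122, 117, 89.8, and 123 CPM in mature mice. Within each age every 2dpr library was above every 0dpr library. Mdm2 rose from 0 to 2dpr by 0.48 ± 0.10 in immature mice (adjusted p = 0.000299) and by 0.83 ± 0.10 in mature mice (adjusted p = 2.91e-08). In mature mice it fell from 2 to 5dpr by 0.52 ± 0.11 on the log2 scale (adjusted p = 0.00129), a call lost when only the libraries compared were fitted (adjusted p = 0.0943). At 14dpr it was 0.38 ± 0.10 above baseline in mature mice (adjusted p = 0.00417), and in immature mice the difference was 0.25 ± 0.10 (adjusted p = 0.0597).

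Trp53, which encodes p53 itself, was lowest at 0dpr. It averaged 29.5 ± 4.04, 23.2 ± 3.33, 45.6 ± 2.56, 36.6 ± 5.47, and 38.3 ± 4.79 CPM in immature mice and 36.4 ± 5.56, 23.9 ± 2.76, 39.9 ± 4.49, 41.6 ± 3.78, and 35.9 ± 2.66 CPM in mature mice, and 3 of 9 neighbouring pairs of groups differed by more than the larger SD. At 0dpr libraries held 26.4, 25.8, 20.03, and 20.7 CPM in immature and 21.7, 25.1, 21.6, and 27.2 CPM in mature mice, and at 2dpr 47.0, 47.1, 46.6, and 41.8 CPM in immature and 41.5, 45.5, 36.0, and 36.5 CPM in mature mice. The 0 and 2dpr libraries did not overlap in either age. Trp53 rose by 0.98 ± 0.13 in immature mice (adjusted p = 1.75e-07) and by 0.74 ± 0.13 in mature mice (adjusted p = 1.51e-05), and both calls held under all settings. In mature mice Trp53 fell from baseline to 0dpr by 0.61 ± 0.13 on the log2 scale (adjusted p = 0.00104). In immature mice the same difference was −0.35 ± 0.13 (adjusted p = 0.0853), and it passed without baseline replicate 3 (adjusted p = 0.0379) or 0dpr replicate 2 (adjusted p = 0.0315). At 14dpr Trp53 was 0.38 ± 0.13 above baseline in immature mice (adjusted p = 0.024), a call lost without baseline replicate 3 (adjusted p = 0.0954), baseline replicate 4 (0.0529), or 14dpr replicate 4 (0.12), and in mature mice the difference was −0.02 ± 0.13 (adjusted p = 0.931).

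Gdf15, the secreted stress hormone, was dominated by 1 library at 0dpr. It averaged 0.290 ± 0.158, 5.22 ± 10.1, 2.32 ± 0.946, 1.71 ± 0.645, and 2.15 ± 0.919 CPM in immature and 0.704 ± 0.308, 0.824 ± 0.379, 3.24 ± 2.66, 3.46 ± 1.92, and 1.70 ± 0.695 CPM in mature mice. Immature libraries at 0dpr held 20.3, 0.123, 0, and 0.417 CPM, that is 136, 1, 0, and 3 counts, against 4, 2, 1, and 4 counts at baseline and 30, 10, 24, and 26 counts at 2dpr. Replicate 1 was above every baseline and every 2dpr library, and the other 3 libraries lay within or below the range at baseline. The fitted change at 0dpr against baseline was 4.08 ± 1.11 with all libraries (adjusted p = 0.017) and −0.85 without replicate 1 (adjusted p = 0.687), and the adjusted p was 0.0508 without baseline replicate 3 and 0.189 with only the libraries compared. This call held under 4 of the 6 planned settings. From 0 to 2dpr the fitted change was −1.14 ± 0.90 with all libraries (adjusted p = 0.323) and 3.79 without replicate 1 (adjusted p = 0.00126), a reversal. Mature 2dpr libraries held 26, 59, 0, and 123 counts, where the library with 0 is replicate 3, which also stood apart. From 0 to 2dpr the mature change was 2.01 ± 0.99 with it (adjusted p = 0.0936) and 2.41 without it (adjusted p = 0.0317). At 14dpr Gdf15 was 2.84 ± 1.11 above baseline in immature mice (adjusted p = 0.0485), a call lost with any 1 of the 8 libraries left out (adjusted p from 0.0508 to 0.11) and with RLE size factors (0.0512), and 1.24 ± 1.00 in mature mice (adjusted p = 0.379). The immature call held under 4 of the 6 planned settings, and the largest adjusted p among the 6 was 0.104. In the order of the groups 2 of 9 neighbouring pairs differed by more than the larger SD.

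Cdkn2b, the p15INK4b gene, was highest at 14dpr in both ages. It averaged 1.08 ± 0.761, 1.73 ± 0.305, 1.19 ± 0.593, 2.60 ± 0.802, and 3.41 ± 0.198 CPM in immature and 0.693 ± 0.328, 1.60 ± 0.619, 1.04 ± 0.493, 2.79 ± 0.543, and 3.86 ± 0.570 CPM in mature mice, and 2 of 9 neighbouring pairs differed by more than the larger SD. At baseline libraries held 0.457, 2.16, 1.02, and 0.670 CPM in immature and 0.524, 0.503, 1.18, and 0.561 CPM in mature mice, against 3.65, 3.35, 3.47, and 3.19 CPM and 4.58, 3.35, 3.45, and 4.05 CPM at 14dpr. Within each age, every 14dpr library was above every baseline library. Cdkn2b rose by 1.65 ± 0.41 in immature mice (adjusted p = 0.00198) and by 2.46 ± 0.43 in mature mice (adjusted p = 2.2e-05), and both calls held under all settings. In mature mice Cdkn2b also rose at 0dpr against baseline by 1.21 ± 0.44 (adjusted p = 0.0433) and from 2 to 5dpr by 1.41 ± 0.42 (adjusted p = 0.0214). The first of these was lost without baseline replicate 1, 2, or 4 or 0dpr replicate 2, 3, or 4 (adjusted p from 0.0584 to 0.185), and the second without 2dpr replicate 3 or 4 or 5dpr replicate 1 or 4 (adjusted p from 0.0506 to 0.0888). Both were also lost with no filter on low counts (adjusted p = 0.119 and 0.0591) and with only the libraries compared (adjusted p = 0.0833 and 0.328). Of the 6 planned settings the first held under 3 and the second under 4. In immature mice the matching differences were 0.68 ± 0.42 (adjusted p = 0.324) and 1.16 ± 0.41 (adjusted p = 0.0775).

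Cdkn2a, the gene of p16INK4a and p19Arf, is best read in counts. Immature libraries held 0, 0, 0, and 0 counts at baseline, 1, 0, 0, and 0 at 0dpr, 14, 2, 1, and 6 at 2dpr, 1, 3, 12, and 5 at 5dpr, and 5, 6, 9, and 9 at 14dpr. Mature libraries held 2, 1, 1, and 6 counts at baseline, 1, 1, 7, and 1 at 0dpr, 3, 5, 0, and 4 at 2dpr, 12, 13, and 7 at 5dpr, and 14, 7, 12, and 14 at 14dpr. Within each age the 14dpr libraries lay above all baseline libraries in counts. In CPM the group means were 0, 0.0374 ± 0.0747, 0.618 ± 0.623, 0.382 ± 0.168, and 0.787 ± 0.206 in immature and 0.266 ± 0.277, 0.299 ± 0.318, 0.216 ± 0.179, 0.733 ± 0.274, and 1.32 ± 0.384 in mature mice, and 2 of 9 neighbouring pairs differed by more than the larger SD. For the 0 counts at immature baseline a floor of 3 counts over the group, or 0.0795 CPM, was used. The level of the 29 counts at 14dpr was 9.93 times that floor, which leaves out counting error in the 29 counts. The fitted log2 fold change between these groups was 6.04 ± 1.21 (adjusted p = 0.000194). At 2dpr 23 counts were 19.5 times the level of the 1 count at 0dpr, with a 95% exact interval of 3.16 to 801 that covers counting error only (fitted adjusted p = 0.00327). Replicate 1 gave 14 of the 23 counts, and the 1 count at 0dpr came from the library that stood apart. The fitted change was 3.85 ± 1.05 with that library and 5.69 without both libraries that stood apart (adjusted p = 0.00105). In mature mice Cdkn2a was 5.31 times as high at 14dpr as at baseline (interval 2.65 to 11.8), with a log2 fold change of 2.30 ± 0.74 (adjusted p = 0.0156). That call was lost without baseline replicate 2 (1.99, adjusted p = 0.0598) or 3 (2.04, adjusted p = 0.0564), and from 0 to 2dpr the mature change was −0.48 ± 0.81 (adjusted p = 0.656).

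Lmnb1, the lamin B1 gene, was highest in mature mice at baseline and lowest at 0dpr. It averaged 43.5 ± 8.42, 26.2 ± 13.4, 48.3 ± 5.27, 34.8 ± 8.44, and 31.3 ± 3.24 CPM in immature and 60.1 ± 10.8, 26.6 ± 11.3, 44.5 ± 3.17, 34.9 ± 3.96, and 31.7 ± 2.82 CPM in mature mice, and 2 of 9 neighbouring pairs differed by more than the larger SD. Mature libraries held 60.2, 75.3, 53.6, and 51.4 CPM at baseline, 23.4, 37.9, 12.2, and 32.8 CPM at 0dpr, 39.8, 45.8, 46.5, and 46.0 CPM at 2dpr, and 31.7, 35.1, 28.2, and 31.9 CPM at 14dpr. Every baseline library was above all libraries of the later stages. In mature mice Lmnb1 fell from baseline to 0dpr by 1.18 ± 0.25 on the log2 scale (adjusted p = 0.000965) and was 0.92 ± 0.25 lower at 14dpr than at baseline on that scale (log2 fold change −0.92, adjusted p = 0.0038). It rose from 0 to 2dpr by 0.75 ± 0.25 (adjusted p = 0.014), a call lost without 0dpr replicate 3 (0.48, adjusted p = 0.101) and with only the libraries compared (adjusted p = 0.0814). Immature libraries held 20.6, 44.0, 12.5, and 27.7 CPM at 0dpr and 49.4, 44.8, 43.7, and 55.3 CPM at 2dpr, and the groups overlapped at 44.0 and 43.7 CPM. That rise was 0.89 ± 0.25 (adjusted p = 0.00445). At 0dpr against immature baseline the difference was −0.74 ± 0.25 (adjusted p = 0.0543), and it passed with DESeq2 (adjusted p = 0.0382) and without 0dpr replicate 2 (−1.16, adjusted p = 0.00185). At 14dpr against immature baseline it was −0.48 ± 0.25 (adjusted p = 0.151).

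Proliferation markers, 10 genes such as Mki67, Top2a, and Cdk1, were lower at 0dpr and 14dpr than at baseline, as was the mean of Lmnb1. Their summed level ranged from 1411 to 2041 CPM at immature baseline, 261 to 1531 CPM at 0dpr, 1008 to 1236 CPM at 2dpr, and 630 to 788 CPM at 14dpr. In mature mice it ranged from 1841 to 2536, 510 to 1686, 544 to 1521, and 451 to 624 CPM at the same stages. None of the 10 markers was at 0 in any group. The mean log2 CPM of the list at 14dpr against baseline differed by −0.99 in immature and −1.79 in mature mice, and at 0dpr against baseline by −1.47 and −1.23 (exact two-sided permutation p = 0.0286 in each, the smallest that 4 against 4 libraries allow, and 0.094 adjusted over 105 tests). From 0 to 2dpr it differed by 1.34 in immature mice (exact permutation p = 0.0571) and by 0.38 in mature mice (exact permutation p = 0.457), where Lmnb1 rose in both. Their part in the Lmnb1 result was not tested.

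Glb1, the gene of lysosomal beta-galactosidase, was lowest at 0dpr and highest at 14dpr. It averaged 38.7 ± 5.61, 29.8 ± 11.4, 57.9 ± 5.69, 64.6 ± 8.08, and 99.0 ± 19.3 CPM in immature and 46.9 ± 6.68, 25.7 ± 2.37, 60.0 ± 8.42, 65.4 ± 4.94, and 70.4 ± 11.7 CPM in mature mice, and 3 of 9 neighbouring pairs differed by more than the larger SD. Immature libraries held 41.2, 31.2, 37.9, and 44.3 CPM at baseline, 40.3, 37.4, 15.3, and 26.2 CPM at 0dpr, 59.0, 58.4, 50.2, and 63.9 CPM at 2dpr, and 80.5, 121, 85.0, and 109.9 CPM at 14dpr. Mature libraries held 49.4, 50.5, 50.8, and 36.9 CPM at baseline, 23.7, 28.1, 23.7, and 27.5 CPM at 0dpr, 56.3, 58.2, 72.3, and 53.2 CPM at 2dpr, and 71.6, 57.3, 67.2, and 85.5 CPM at 14dpr. In both ages every 2dpr library was above every 0dpr library and every 14dpr library above every baseline library. Glb1 rose from 0 to 2dpr by 0.96 ± 0.19 in immature mice (adjusted p = 6.73e-05) and by 1.22 ± 0.19 in mature mice (adjusted p = 1.59e-06). It was 1.36 ± 0.19 above baseline at 14dpr in immature mice (adjusted p = 5.05e-07) and 0.59 ± 0.18 above it in mature mice (adjusted p = 0.0122). The latter call was lost without baseline replicate 4 (0.49, adjusted p = 0.0606) or 14dpr replicate 4 (0.48, adjusted p = 0.062). At 0dpr against baseline Glb1 fell in mature mice by 0.87 ± 0.19 on the log2 scale (adjusted p = 0.0011), and in immature mice the difference was −0.38 ± 0.19 (adjusted p = 0.189), or −0.57 without both libraries that stood apart (adjusted p = 0.0468). The difference between the ages in that change was 0.48 ± 0.27 (adjusted p = 0.669), and 0.30 without both (adjusted p = 0.752).

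Levels of cell type markers also differed between stages. From 0 to 2dpr the summed level of 10 macrophage markers went from a range of 1094 to 1882 CPM to one of 7512 to 9062 CPM in immature mice, and from 1147 to 2297 CPM to 7307 to 8944 CPM in mature mice. That of 10 skeletal muscle markers went from 50460 to 109199 CPM to 10538 to 15587 CPM in immature and from 58459 to 121267 CPM to 7335 to 15679 CPM in mature mice. No marker of either list was at 0 in any group, and for both lists the libraries of the stages did not overlap. The differences in mean log2 CPM were 3.01 and 3.16 for macrophage markers and −2.75 and −3.33 for muscle markers in immature and mature mice (exact two-sided permutation p = 0.0286, the smallest possible, and 0.094 adjusted over 105 tests). With a prior count of 0.5 in place of 2 each of these kept its direction and its p. At 14dpr macrophage markers summed to 6516 to 9021 CPM in immature and 7709 to 9583 CPM in mature mice, against 1826 to 2669 and 2196 to 3497 CPM at baseline. Muscle markers summed to 9282 to 15799 and 11051 to 20372 CPM at 14dpr, against 44933 to 61256 and 25242 to 53288 CPM at baseline. The differences in mean log2 CPM at 14dpr against baseline were 2.16 and 1.81 for macrophage and −2.09 and −1.28 for muscle markers, each with the same exact permutation p. At 0dpr against baseline in mature mice, the step in which Trp53, Lmnb1, and Glb1 fell, macrophage markers differed by −0.74 and neutrophil markers by −1.84, and muscle markers summed to 58459 to 121267 CPM against 25242 to 53288 CPM, each with an exact permutation p of 0.0286. In immature mice the differences at that step were −0.16 for macrophage, −1.73 for neutrophil, and 0.54 for muscle markers (exact permutation p = 0.486, 0.0857, and 0.114). Erythroid markers differed at that step by −1.40 in immature and −0.64 in mature mice (exact permutation p = 0.0286 and 0.143). The part of these markers in the changes of the members was not tested.

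**Figure D3:**
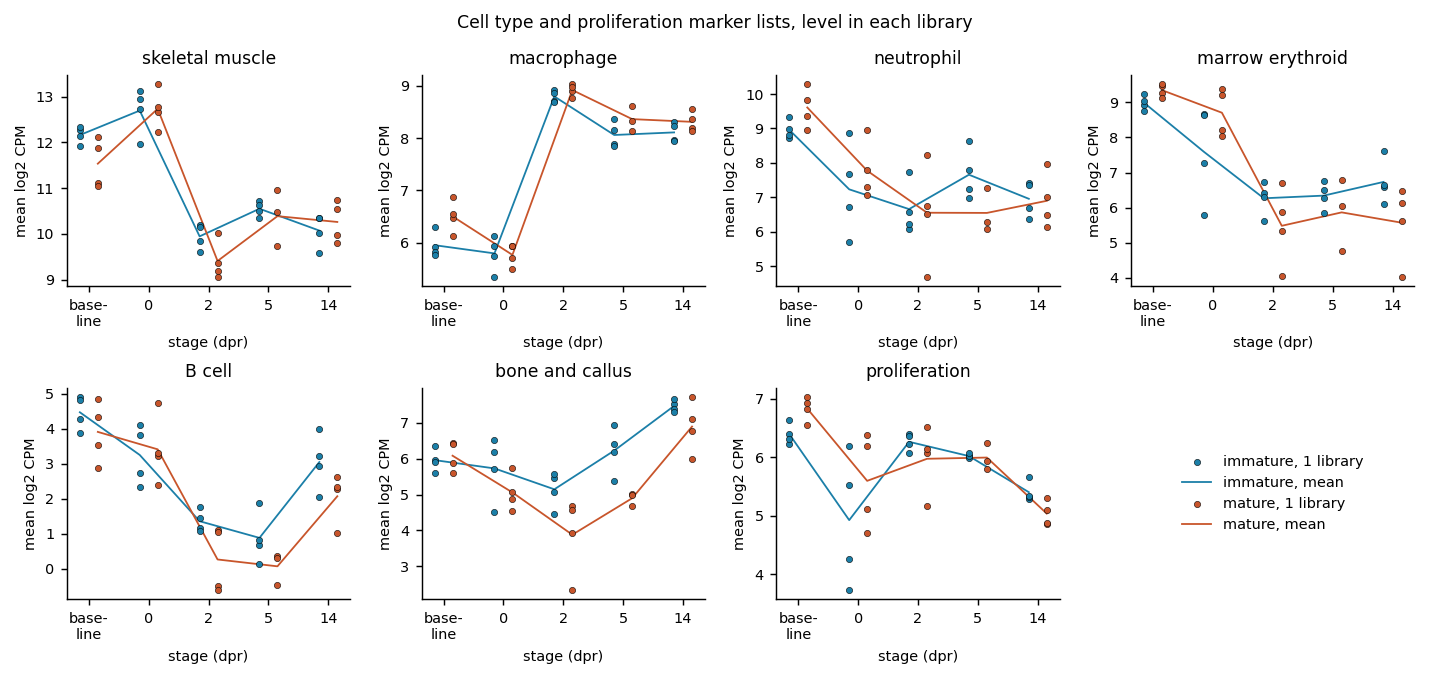
Mean log2 CPM (y axis) of 7 marker lists in each library (points) at each stage (x axis), with lines through the group means of immature and mature mice. Macrophage markers lie above 8 from 2dpr on in the group means, and muscle markers lie highest at 0dpr.

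Leaving out both libraries that stood apart changed which members passed at 0dpr. In this fit 11.9% of all genes were called at 0dpr against baseline in immature mice. From 0 to 2dpr 46.8% of all genes were called in immature and 50.3% in mature mice. From 2 to 5dpr 14.7% were called in mature mice. In immature mice 2 of 8 still passed at 0dpr against baseline, but these were Trp53 (−0.41, adjusted p = 0.0482) and Glb1 (−0.57, adjusted p = 0.0468) in place of Cdkn1a (0.39, adjusted p = 0.269) and Gdf15 (−0.84, adjusted p = 0.565). From 0 to 2dpr, 7 of 8 passed in immature mice and 6 of 8 in mature mice, and the additional gene was Gdf15 in both, at 3.79 (adjusted p = 4.76e-05) and 2.42 (adjusted p = 0.000193). Cdkn1a from 0 to 2dpr in immature mice was then 1.16 (adjusted p = 0.000117). The other immature rises from 0 to 2dpr were then 5.69 for Cdkn2a, 0.39 for Mdm2, 1.04 for Trp53, 0.79 for Lmnb1, and 1.15 for Glb1. The other mature rises were 1.57 for Cdkn1a, 0.93 for Mdm2, 0.78 for Trp53, 0.73 for Lmnb1, and 1.12 for Glb1. From 2 to 5dpr Cdkn2b (1.23, adjusted p = 0.0441) and Mdm2 (−0.62, adjusted p = 3.66e-05) again passed in mature mice.

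**Figure D4:**
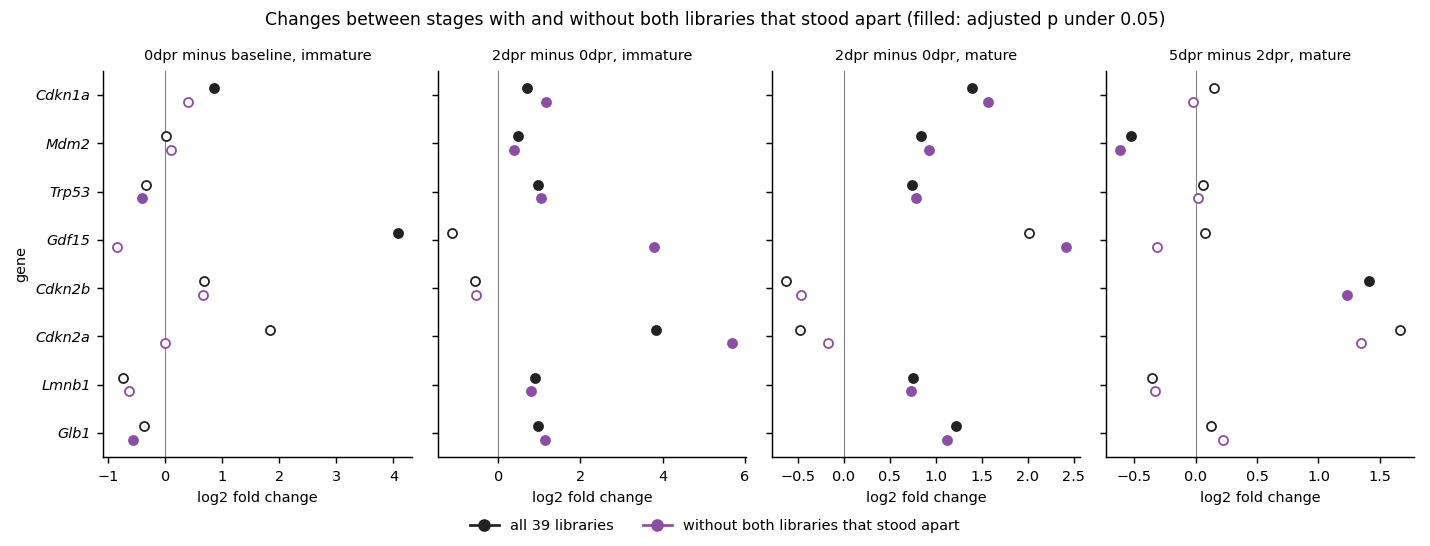
Log2 fold change (x axis) of each gene (y axis) for the changes between stages that involve either library that stood apart, with all 39 libraries and without both, filled where the adjusted p was under 0.05. Gdf15 moves from 4.08 to −0.84 at 0dpr against baseline and from −1.14 to 3.79 from 0 to 2dpr in immature mice.

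The ages were not told apart by any member. With edgeR 0 of 8 differed between immature and mature mice at baseline (0.585% of all genes tested were called), at 0dpr (0.726%), at 2dpr (0.627%), at 5dpr (0%), and at 14dpr (0.00943%). These tests were unpaired, also at 0dpr, where replicate numbers were taken to pair the libraries. Of these 40 tests 6 had an unadjusted p under 0.05. Of all 21203 genes 2482, 2278, 2812, 1081, and 968 had one, in the same order of stages. DESeq2 called 0 of the 40, and the smallest adjusted p of a member was 0.124. That was Cdkn2a at baseline, with 10 counts in mature against 0 in immature libraries. The mature level was 3.10 times the floor of 3 counts, a value that leaves out counting error in the 10 counts. At 0dpr mature libraries held 10 counts of Cdkn2a and immature libraries 1, a ratio of 10.8 with a 95% counting interval of 1.53 to 467 (adjusted p = 0.279), and at 14dpr they held 47 and 29, a ratio of 1.66 (interval 1.02 to 2.73, adjusted p = 1). Of the 10 mature baseline counts replicate 4 gave 6, and of the 10 mature 0dpr counts replicate 3 gave 7. The 1 immature count at 0dpr came from replicate 1, which stood apart, so that without it the immature libraries held 0 counts and no ratio can be given.

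Mdm2 at 2dpr was the closest to a difference among the well expressed members, at −0.31 (immature minus mature, 95% confidence interval −0.52 to −0.10, adjusted p = 0.166). The immature libraries held 85.6 to 100.1 CPM, and the mature ones 122, 117, and 123 CPM apart from replicate 3 at 89.8 CPM. Without that library, which stood apart, the difference was −0.40 (adjusted p = 0.0475), and without both libraries that stood apart it was −0.40 (adjusted p = 0.0272). Gdf15 at 0dpr was 2.65 (interval 0.60 to 4.69, adjusted p = 0.261) and −2.25 without immature 0dpr replicate 1 (adjusted p = 0.59). Glb1 at 14dpr was 0.49 (interval 0.12 to 0.86, adjusted p = 0.922), with 80.5 to 121 CPM in immature and 57.3 to 85.5 CPM in mature mice, and Trp53 at baseline was −0.30 (interval −0.57 to −0.04, adjusted p = 0.341). For Cdkn1a the intervals were −0.19 to 0.94 at baseline, −0.02 to 1.10 at 0dpr, −0.69 to 0.38 at 2dpr, −0.98 to 0.17 at 5dpr, and −0.91 to 0.18 at 14dpr. For Lmnb1 they were −0.97 to 0.04, −0.54 to 0.50, −0.39 to 0.62, −0.54 to 0.55, and −0.53 to 0.49, and for Cdkn2b −0.27 to 1.53, −0.75 to 0.94, −0.68 to 1.03, −0.92 to 0.76, and −0.96 to 0.60, in the same order. Without both libraries that stood apart the differences at 0 and 2dpr were 0.08 and −0.33 for Cdkn1a, 0.07 and 0.14 for Lmnb1, and 0.08 and −0.01 for Cdkn2b, none of them called. Differences of about 1 on the log2 scale therefore lay within several of these intervals.

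**Figure D5:**
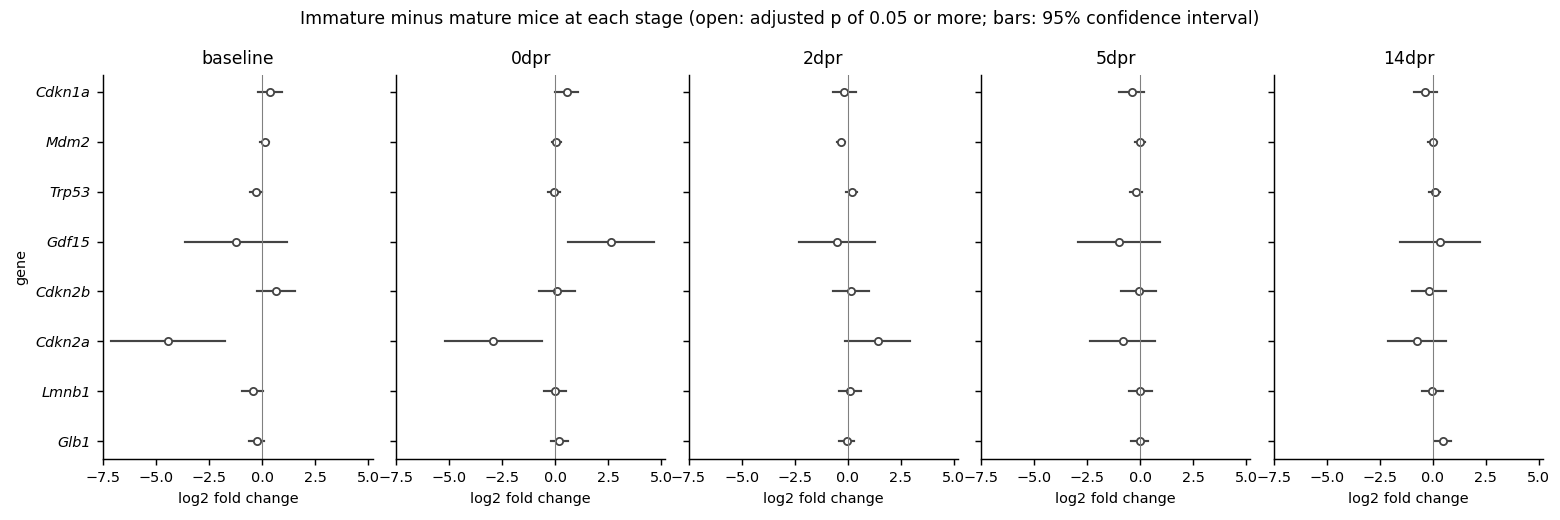
Log2 fold change of immature minus mature mice (x axis) for each gene (y axis) at 5 stages, with 95% confidence intervals. All points are open, and the widest intervals are those of Cdkn2a and Gdf15.

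Whether the stage changes differed between the ages was tested as an interaction. None of 8 members passed at any of the 5 changes, where 0.0141% (0dpr against baseline), 0.0613% (2dpr against 0dpr), 0% (5dpr against 2dpr), 0% (14dpr against 5dpr), and 0.0472% (14dpr against baseline) of all genes were called. Of these 40 tests 9 had an unadjusted p under 0.05. Of all 21203 genes 1712, 2382, 1714, 901, and 1694 had one, in the same order of changes. DESeq2 called 0 of the 40, and the smallest adjusted p of a member was 0.232. That was Cdkn2a from 0 to 2dpr, whose fitted changes were 3.85 ± 1.05 in immature and −0.48 ± 0.81 in mature mice. For Cdkn1a over the same step the difference between the ages was −0.70 ± 0.38 (adjusted p = 0.493), and for Mdm2 it was −0.36 ± 0.15 (adjusted p = 0.349). For Gdf15 it was −3.15 ± 1.34 (adjusted p = 0.369), and 1.76 without immature 0dpr replicate 1 (adjusted p = 0.609). At 0dpr against baseline the difference for Gdf15 was 3.90 ± 1.55 (adjusted p = 0.536), and −1.02 without both libraries that stood apart (adjusted p = 0.807). Without both, the differences from 0 to 2dpr were 5.86 for Cdkn2a (adjusted p = 0.248), −0.41 for Cdkn1a (0.75), and −0.53 for Mdm2 (0.162). At 14dpr against baseline Glb1 differed by 0.77 ± 0.26 (adjusted p = 0.382) and Trp53 by 0.40 ± 0.18 (adjusted p = 0.598).

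Other genes of the same pathways were counted beside all genes tested, of which 44.0% in immature and 47.6% in mature mice were called from 0 to 2dpr, 21.8% and 22.7% as higher, and 16.4% and 17.1% as higher at 14dpr against baseline. In total 31.4% and 33.5% were called at 14dpr against baseline. At 0dpr against baseline 10.6% were called in immature mice, 5.98% as higher. In mature mice 22.5% were called in that step, 11.9% as higher and 10.6% as lower. Of 26 further p53 targets, 7 rose and 8 fell from 0 to 2dpr in immature and 8 rose and 8 fell in mature mice, with medians of −0.28 and −0.14 beside −0.04 and −0.05 over all genes. At 0dpr against baseline 6 rose and 1 fell in immature and 8 rose and 2 fell in mature mice, and at 14dpr against baseline the counts were 7 and 7 and 8 and 7. Plk2, a kinase that p53 induces, rose at 0dpr against baseline by 1.19 and 1.38 and from 0 to 2dpr by 1.69 and 1.68 in immature and mature mice. Phlda3, a p53-induced inhibitor of Akt, took the opposite course after 0dpr, as it rose by 0.58 and 1.26 and then fell by 1.11 and 0.92 on the log2 scale. Bbc3 (Puma) and Aen passed in 0 of the 10 stage changes, with differences from 0 to 2dpr of 0.81 and −0.03 in immature mice. Without both libraries that stood apart, the p53 targets called from 0 to 2dpr were 8 higher and 8 lower in immature mice, and 8 higher and 9 lower in mature mice.

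Of the 4 other CDK inhibitors, 0 rose and 1 fell from 0 to 2dpr in immature mice (median −0.32), against 0 and 3 in mature mice (median −0.83). Cdkn1c (p57) rose from 2 to 5dpr by 2.10 in immature and 3.32 in mature mice, the step in which Cdkn1a did not pass, and fell from 5 to 14dpr by 1.07 and 1.43 on the log2 scale. Cdkn1b (p27) fell from 0 to 2dpr by 0.56 and 0.58 on that scale, Cdkn2c (p18) fell by 1.07 in mature mice, and Cdkn2d (p19INK4d) was lower at 14dpr than at baseline, at −0.93 and −1.47. Among 12 genes of the cyclin D and retinoblastoma axis, 5 rose and 1 fell from 0 to 2dpr in immature and 4 rose and 2 fell in mature mice, with medians of 0.15 and 0.19. Ccnd1 (cyclin D1) rose by 1.56 and 1.70, and Rbl1 (p107), a gene of cycling cells, by 0.74 in immature mice, whereas E2f3 and Ccnd2 passed in 0 of the 10 stage changes. At 14dpr against baseline 2 rose and 5 fell in immature and 1 rose and 5 fell in mature mice. Leaving out both libraries that stood apart gave 4 higher and 1 lower from 0 to 2dpr in immature and 5 higher and 2 lower in mature mice.

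Among lysosomal genes, as for Glb1, most rose. Of 18 hydrolases and lysosomal partners 17 rose and 1 fell from 0 to 2dpr in both ages, with medians of 1.41 and 1.42 (all genes −0.04 and −0.05, of which 21.8% and 22.7% rose). At 14dpr against baseline 17 rose in immature and 15 in mature mice, with medians of 1.03 and 0.87 (all genes −0.04 and −0.03, of which 16.4% and 17.1% rose). Hexa, a lysosomal hydrolase, rose from 0 to 2dpr by 1.31 in immature and 1.32 in mature mice. Lipa, the lysosomal acid lipase, rose by 2.40 and 2.08. Gaa, the acid alpha-glucosidase that digests glycogen in muscle, was the one that fell, by 0.71 and 1.19 on the log2 scale. At 0dpr against baseline 0 rose and 3 fell in immature and 2 rose and 6 fell in mature mice. Without both libraries that stood apart 17 rose and 1 fell from 0 to 2dpr in each age. The ranges of the macrophage and muscle markers at baseline, 0, 2, and 14dpr are given above, and their part in the lysosomal changes was not tested.

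Of 9 further genes of the nuclear envelope 3 rose and 2 fell from 0 to 2dpr in immature and 2 rose and 3 fell in mature mice, with medians of 0.28 and −0.16. Lmna (lamin A/C) and Lmnb2 (lamin B2) rose by 1.48 and 1.60 in immature and 1.38 and 1.06 in mature mice. Lmna was above baseline at 14dpr by 1.15 and 1.71, where Lmnb1 was at −0.48 and −0.92. Emd (emerin) passed in 0 and Banf1 in 1 of the 10 stage changes. Of 10 genes of the integrated stress response, which induces Gdf15 through Atf4 and Ddit3, 3 rose and 2 fell from 0 to 2dpr in immature and 2 rose and 2 fell in mature mice, with medians of −0.01 and 0.42. Atf3 rose by 1.06 and 2.93, and Asns (asparagine synthetase) by 0.55 in immature mice, whereas Atf4 and Trib3 passed in 0 of the 10 stage changes. The 0dpr level of Atf3 was 35.0 ± 31.7 CPM in immature and 11.9 ± 3.97 CPM in mature mice. The immature rise therefore rests on a mean with a wide spread. Of the 10 genes 0 passed as a difference between the ages in this step. Without both libraries that stood apart 2 of these 10 rose from 0 to 2dpr in immature and 4 in mature mice, with medians of 0.23 and 0.15, and the nuclear envelope counts were 3 higher and 2 lower in immature and 2 and 4 in mature mice.

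Of 20 secreted factors linked to senescence, 14 rose and 2 fell from 0 to 2dpr in immature and 16 rose and 2 fell in mature mice, with medians of 1.85 and 2.55. Without both libraries that stood apart 15 rose in immature and 16 in mature mice, with medians of 2.69 and 2.75. At 14dpr against baseline 16 rose and 2 fell in immature and 15 rose and 2 fell in mature mice. Ccl2, the monocyte chemoattractant, rose from 0 to 2dpr by 6.08 and 7.29, and Cxcl2, a neutrophil chemoattractant, by 4.68 and 7.27. The 0dpr level of Cxcl2 was 2.31 ± 3.37 CPM in immature and 0.754 ± 0.598 CPM in mature mice, a wide spread in the former. Of the 20 factors 0 passed as a difference between the ages in this step. Il1a rose by 2.08 and 1.70, and Ccl5 by 1.61 in immature mice and was −0.40 in mature mice. Macrophages also make several of these factors, and the part of the macrophage markers, whose ranges are given above, in these changes was not tested. Between the ages 1 of the 20 was higher and 1 lower in immature mice at baseline and the same counts held at 0dpr, with 0 at 2, 5, and 14dpr. At 0dpr the counts were 0 higher and 1 lower without both libraries that stood apart. Of all genes 0.585% were called between the ages at baseline, 0.726% at 0dpr, 0.627% at 2dpr, 0% at 5dpr, and 0.00943% at 14dpr. Of the other 6 lists, 1 CDK inhibitor was higher in immature mice at 2dpr, 1 stress response gene was lower at baseline and 1 higher at 0dpr, and the remaining lists had 0 at every stage. The calls of the CDK inhibitor at 2dpr and of the stress response gene at 0dpr were lost without both libraries that stood apart.

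Members that shared a pattern across the 39 libraries were described by Pearson's r of log2 CPM, with no test, since the libraries share groups and stages. Trp53 and Glb1 were the closest pair (r = 0.78), followed by Cdkn1a and Mdm2 (0.67), Cdkn1a and Gdf15 (0.65), and Cdkn2a and Cdkn2b (0.63), and Cdkn2b and Lmnb1 were the most opposed (−0.52). Among 14109 other genes, those most like Cdkn1a were Ecm1 (0.926), Ergic1 (0.924), and Epb41l1 (0.911), and those most like Mdm2 were Stx7 (0.897), Vps26a (0.896), and Esd (0.894). Trp53 was most like Ptbp1 (0.915), Laptm5 (0.913), and Snd1 (0.908). Glb1 was most like Hexa (0.923), the lysosomal hydrolase described above, and then Tmed3 (0.913) and Plpp5 (0.907). Lmnb1 was most like Arhgap11a (0.919), Incenp (0.905), a subunit of the chromosomal passenger complex of mitosis, and Lyl1 (0.899). The genes most like Cdkn2b were Laptm4a (0.853), Adamts16 (0.849), and Nedd4 (0.824), and those most like Gdf15 were Stra6l (0.844), Junb (0.843), and Asl (0.837). Cdkn2a, with a mean of 0.459 CPM, was left out of this comparison.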

How the data were processed

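Bulk RNAseq of 39 of 40 labelled samples was used. Per the labels and the study's methods, ground tissue gave total RNA for TruSeq stranded libraries with paired reads of 150 bases, and the authors used STAR 2.5.2a with GRCm38 for mapping and for counts per gene. The strand setting of the counting is not given in the sources used here. The deposited counts are raw whole numbers, given for all genes and for a subset filtered by a rule not given in the sources used here. The 24 rows that name no gene held at most 0.00227% of a library's counts and were left out. The deposited normalized signal is CPM with TMM factors, and CPM recomputed from the counts differed from it by a relative 3e-04 at most.

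Counts of 21203 genes were scaled by TMM and fitted over all libraries with edgeR 4.0.16 (R 4.3.3) by its quasi-likelihood test, with 1 coefficient per group. Adjusted p-values are Benjamini-Hochberg values over all genes with a threshold of 0.05, and standard errors come from the F statistic. A gene with 0 counts in a group was compared with a floor of 3 counts over the group, and intervals of count ratios are exact binomial ones that cover counting error only. Marker lists were compared by exact permutation tests of mean log2 CPM with a prior count of 2. The fit was tested on simulated data. No libraries of a group agreed within sampling noise (lowest chi-square per degree of freedom 7.00).

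The members and lists were chosen with earlier results of these data known. Named beside the 8 members were the 2 genes of each list called in the most and the 2 called in the fewest of the 10 stage changes, with a mean of at least 1 CPM, and the 3 genes most like each member. A gene that this rule names is not reported here. Pairing by replicate number was checked by whether libraries with the same number deviate together from their groups. All 4 correlations were over 0.1 only for immature against mature mice at 0dpr (0.109 to 0.207), so that the numbers were taken to pair these libraries. The replicate block fits an effect of each number that all groups share, so that it is not a paired test of that comparison. No paired test of the ages at 0dpr was run, and the age differences and interactions involving 0dpr left the pairing out. No member was called between the ages at 0dpr with or without the block, and over all genes the calls went from 154 to 122.

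Alternatives were RLE size factors, DESeq2 1.42.0, all 35470 genes with a count, the 18333 genes kept by filterByExpr, only the libraries compared, the replicate block, and each library left out. A fit without both libraries that stood apart was chosen after seeing the data.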

Additional observations from a re-analysis of the deposited data

Results flagged for a closer look

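Single libraries lay far from the other 3 of their group in 8 of 71 groups tested with Dixon's criterion. The groups share libraries and several hold few counts, so that this number cannot be set against a chance rate. For Gdf15 this was immature 0dpr replicate 1 at 20.3 CPM, and for Cdkn2a the same library at 0.149 CPM, which is 1 count where the others had 0. Cdkn2a also had mature 0dpr replicate 3 at 0.776 CPM (7 counts), and Cdkn2b had mature baseline replicate 3 at 1.18 CPM. The others were Mdm2 in immature 5dpr replicate 4 at 69.4 CPM, Trp53 in immature 2dpr replicate 4 at 41.8 CPM, Lmnb1 in mature 2dpr replicate 1 at 39.8 CPM, and Glb1 in mature baseline replicate 4 at 36.9 CPM. In the last 4 the library lay below its group mates.

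A row for a bacterial beta-lactamase gene, outside the genes tested, held between 48 and 219 counts in every library.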

How the results depend on the processing

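The counts of stage changes of the members that passed, 14 of 40 in immature and 17 of 40 in mature mice, became 12 and 17 with RLE size factors, 16 and 18 with DESeq2, 16 and 15 with no filter on low counts, 16 and 17 with filterByExpr, 14 and 14 with only the libraries compared, and 18 and 19 without both libraries that stood apart. Calls over all genes moved as well. Without both libraries those from 0 to 2dpr went from 9321 to 9926 in immature and from 10100 to 10658 in mature mice. With only the libraries compared they were 7830 and 6118. With one library left out in turn the counts of the members ran from 11 to 17 in immature and from 15 to 17 in mature mice. With the replicate block they were 11 and 16, and outside 0dpr between the ages the numbers did not pair the libraries, since no other comparison had all same-numbered pairs correlated over 0.1, and in none of the 15 comparisons between groups did every library correlate best with its own number. Age differences stayed at 0 of 40 under all settings except without mature 2dpr replicate 3 and without both libraries that stood apart, where 1 (Mdm2 at 2dpr) was called, and with one library left out the count ran from 0 to 1. Interactions stayed at 0 of 40 under every setting. Among changes called with all libraries, direction turned only for Gdf15 at 0dpr against baseline in immature mice. Without immature 0dpr replicate 1 and without both libraries that stood apart, Gdf15 was −0.85 and −0.84 at 0dpr against baseline in immature mice, 3.79 and 3.79 from 0 to 2dpr, −2.25 and −2.27 for immature minus mature mice at 0dpr, and 1.76 and 1.37 for the difference between the ages from 0 to 2dpr. With one library left out in turn these 4 values ran from −0.85 to 4.55, from −1.60 to 3.79, from −2.25 to 3.09, and from −3.59 to 1.76. Without both libraries Gdf15 also turned from 3.90 to −1.02 for the difference between the ages at 0dpr against baseline, and from 0.08 to −0.32 from 2 to 5dpr in mature mice. Differences of the other members that were not called turned as well, with Trp53 the exception, such as Cdkn2a from 1.56 to −0.29 and Cdkn1a from 0.17 to −0.29 for the difference between the ages at 0dpr against baseline. Cdkn2a rests on 0 to 14 counts per library.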
